A study of Mus musculus with 8 samples.

Results

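The actin, myosin and tubulin genes of mouse liver were followed through a comparison of livers with and without METTL14, both under stress of the endoplasmic reticulum. The genes were chosen by symbol alone: alpha, beta and gamma tubulins, actins, alpha-actinins 1 and 4, actin-related proteins and subunits of the Arp2/3 complex, myosin heavy and light chains with their kinases, unconventional myosins, tropomyosins, transgelins and cofilins. The rule took 86 of 16133 genes in the table, of which 78 had an adjusted p-value. Mice labelled METTL14f/f carry the floxed gene (WT here), and those labelled METTL14Alb are the liver knockouts of the series (KO here). The labels do not spell out the Cre driver, and they give no strain, age or sex. METTL14 is a subunit of the enzyme that writes N6-methyladenosine (m6A) into mRNA. Mice of both genotypes had been injected intraperitoneally with tunicamycin, a drug that blocks N-linked glycosylation, at 2 mg/kg for 24 hours. Untreated liver was not analysed here. Polyadenylated liver RNA was sequenced as such (input) and after enrichment with an m6A antibody (IP), with 2 libraries for each genotype and library type. Whether the 2 libraries of a group stem from different animals is not stated, so every p-value here reflects the variation among these libraries, which may be technical.

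Actin filaments shape the cell cortex, the bile canaliculus and the contractile apparatus. They are built from actin monomers, branched by the Arp2/3 complex, cut by cofilins, coated by tropomyosins and bundled by alpha-actinins and transgelins. Type II myosins pull on these filaments and are switched on when a kinase phosphorylates their regulatory light chains. Unconventional myosins carry membranes and organelles along them. Microtubules are polymers of alpha and beta tubulin, nucleated by gamma tubulin, and in hepatocytes they guide secretory vesicles. Many actin, transgelin, tropomyosin and light chain genes are classical targets of serum response factor (SRF), which binds the CArG box, CC followed by 6 bases of A or T and then GG.

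Most called members rose. The 8 untested members (Actg2, Myh7, Myl7, Mylk4, Myo1a, Myo1h, Myo15 and Tuba3a) had mean normalized counts of 0.536 to 2.28. Of the 78 tested, 33 were higher in KO, 7 were lower and 38 were not called at an adjusted p under 0.05 in the DESeq2 test of the authors' deposited table. The share called higher was 42.3%, beside 20.4% of all 14257 tested genes, and the share called lower was 8.97%, beside 22.2% of all. By the authors' deposited table, the median log2 change was 0.72 over the tested members and 0.05 over all tested genes. Among genes with a mean normalized count of at least 100, a limit added after the data were seen, 26 of 57 members rose (45.6%, beside 20.8% of all such genes) and 7 fell (12.3%, beside 31.4%). In liver extracts, a changed number of cells of a type and a changed amount of RNA per cell cannot be told apart.

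For all 86 members the read count of each input library could be worked out from the deposited means. Their digits alone fixed it for 29 members, and for the others the deposited fold change was needed as well. Replicate numbers cannot be told from the digits, so the libraries are named A and B within each genotype (KO A, for example). Estimated totals, with genes of unrecovered counts entered at the genotype mean implied by the deposited values, were 12292589 to 16838934 reads. Which genotype is the numerator is not named in the authors' deposited table, and the peak lists were used to read its changes as KO divided by WT. Of 347 genes with a mean of at least 100 and a log2 change over 2 by the authors' deposited table, 156 had peaks solely in KO and 0 solely in WT. For 403 such genes below -2 these numbers were 30 and 46. Mettl14 had 64.6 and 62.0 normalized counts in the KO libraries against 79.8 and 99.7 in the WT libraries. Its log2 change of -0.50 ± 0.41 (SE, authors' deposited table) did not pass the test (adjusted p = 0.342). With libraries scaled to total counts in limma the value for Mettl14 turned to 0.32. Both KO libraries lay above both WT libraries for 48 of the 78 tested members (61.5%, beside 40.2% of all recovered genes) and below both for 15 (19.2%, beside 36.6%). All 40 called members had no overlap between genotypes. A call on 2 libraries per genotype makes this likely beforehand, so a lack of overlap in called genes adds no support to the call. Among the 68 tested members with a mean of at least 10, the 2 KO libraries never differed 2-fold, and the 2 WT libraries did so for Myl9, Myo5c, Myo7b and Tuba8. In limma on these counts 37 members were higher (47.4%, beside 25.3% of all 14074 genes) and 7 lower (beside 24% of all genes). When KO A or KO B was left out of that fit, a lone KO library remained and the calls were lost. All 40 called members kept their sign there, which their lack of overlap had fixed in advance.

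**Figure D1:**
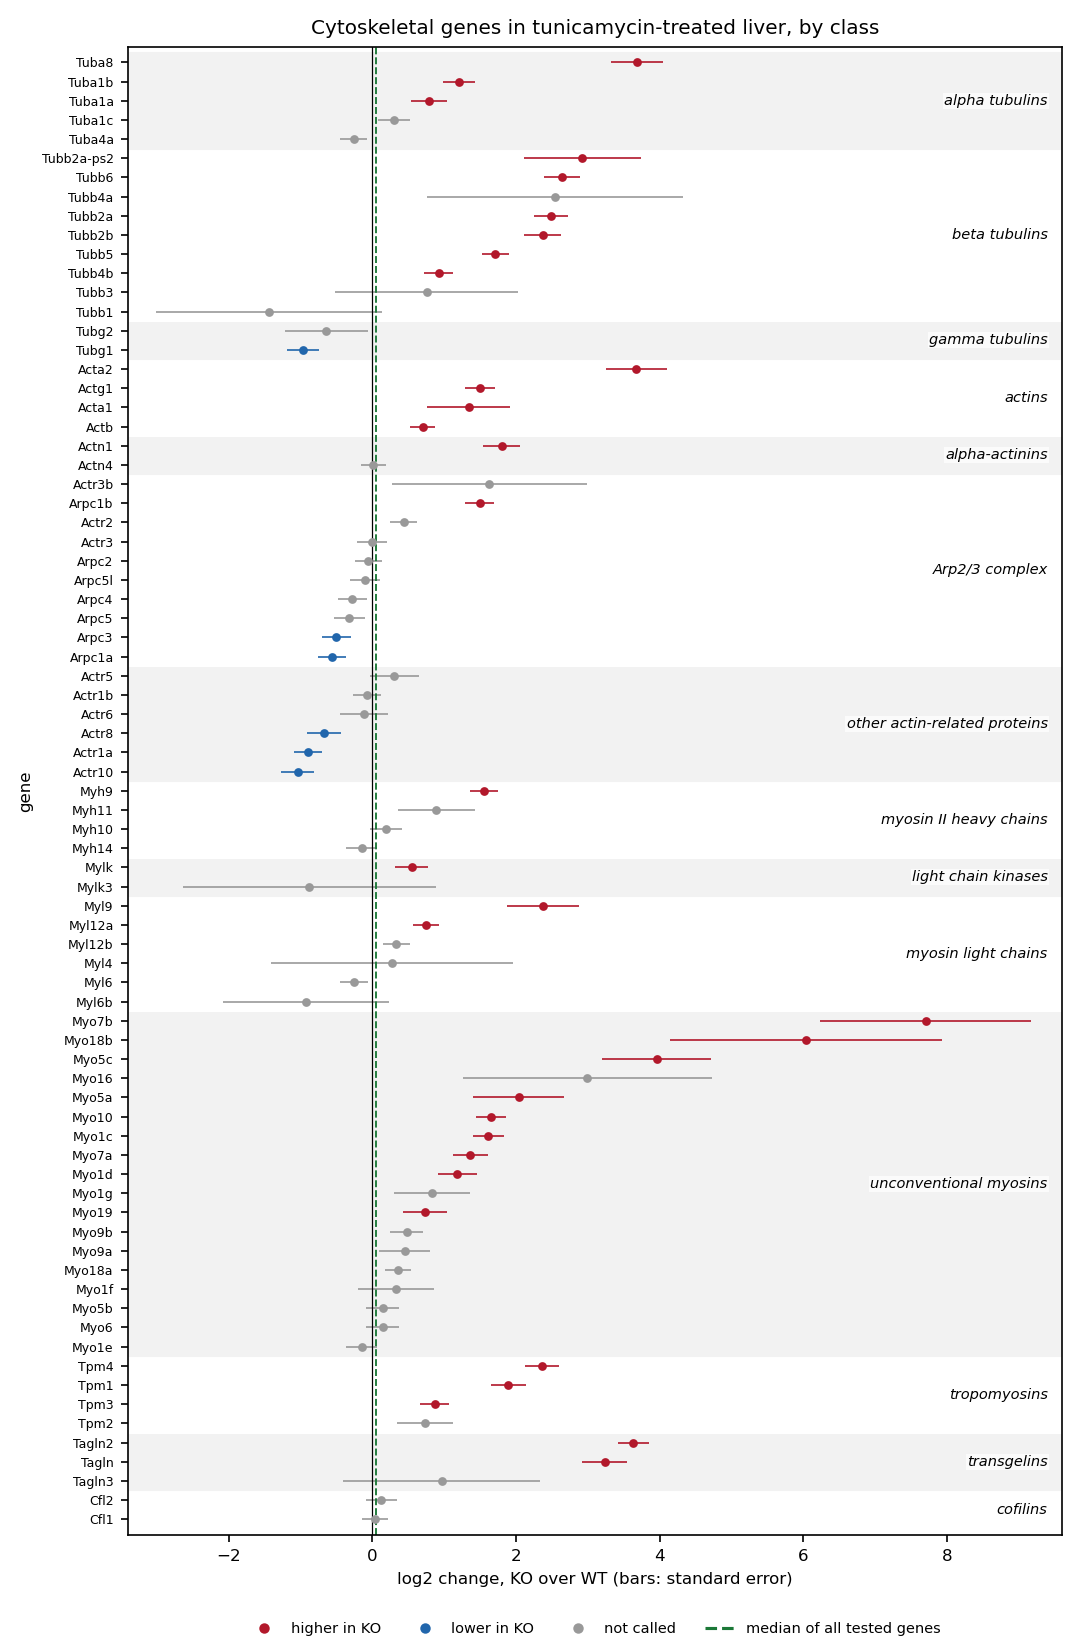
Log2 change of 77 of the 78 tested members, KO over WT, from the authors' deposited table, with bars of 1 standard error, grouped by class from alpha tubulins at the top to cofilins at the bottom. Red points were higher in KO (33 genes), blue points lower (6 of the 7 genes) and grey points not called, and the dashed line is the median of all tested genes at 0.05.

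The start regions of these genes were searched for the CArG box, because several members are textbook targets of SRF. RefSeq start regions of build GRCm38.p6, 250 bases before to 50 after a transcript start, were at hand for 69 of the 86 members and for 27025 genes in all. Of the 33 members that rose 25 had such a region. Members not named in this paragraph had no match or had no region to search. A box on either strand with all 6 inner bases A or T was found in 7 members (10.1%), beside 1.81% of all genes. The 7 were Acta1, Actg1 and Myl9, which rose, Arpc4, Myl6 and Myo1e, which were not called, and Myl7, which was not tested. In a looser search, added after the data were seen, 1 inner base could be C or G. It matched 12 members (17.4%, beside 11.3% of all genes), and the 5 it added were Acta2, Tpm3, Myo10 and Myl12a, which rose, and Arpc1a, which fell. The following stretches, each 5′ to 3′ on the strand of the gene with the box in capitals, show the exact boxes of the 3 genes that rose, the looser box of Acta2, and the exact boxes of 2 genes that were not called.
Acta1 (chr8:123894814-123894873, minus strand): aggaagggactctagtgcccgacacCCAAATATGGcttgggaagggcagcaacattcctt
Actg1 (chr11:120348551-120348610, minus strand): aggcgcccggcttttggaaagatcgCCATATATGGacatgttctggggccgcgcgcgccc
Myl9 (chr2:156775278-156775337, plus strand): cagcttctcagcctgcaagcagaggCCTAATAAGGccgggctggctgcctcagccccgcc
Acta2 (chr19:34255423-34255482, minus strand): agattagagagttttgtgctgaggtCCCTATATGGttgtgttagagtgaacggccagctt
Myl6 (chr10:128493025-128493084, minus strand): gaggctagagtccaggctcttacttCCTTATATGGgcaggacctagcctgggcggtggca
Myo1e (chr9:70207293-70207349, plus strand): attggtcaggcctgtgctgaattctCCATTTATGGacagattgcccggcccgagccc
The boxes of Acta1, Actg1, Acta2 and Myl6 ended 63, 80, 74 and 40 bases before the transcript start of their region, and those of Myl9 and Myo1e 151 and 22 bases before it. For Acta2, Myl6 and Myl9 that start lies inside the RefSeq gene, and the boxes of Acta2 and Myl6 themselves lie inside the gene, past its outermost start. A match describes the letters only, and genes with an exact or looser box stand among those that rose, those that fell and those that were not called.

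All 4 tested actin genes rose. Acta2 (chromosome 19, 34240336 to 34255585, GRCm38.p6), the smooth muscle alpha-actin that activated stellate cells also make, had 261 and 195 normalized counts in the KO libraries against 19.4 and 16.2 in the WT libraries. The authors' deposited table gave a log2 change of 3.67 ± 0.43 (SE, adjusted p = 2.08e-16). The 2 cytoplasmic actins build the cortex of every cell and share long stretches of sequence, so reads may have been split between them. Actg1 (chromosome 11, 120345687 to 120348495), gamma-actin, had 3726 and 4065 normalized counts in KO and 1587 and 1173 in WT. Actb, beta-actin, had 9887 and 9119 in KO and 5468 and 6235 in WT. From the authors' deposited table, Actg1 rose by 1.50 ± 0.20 and Actb by 0.70 ± 0.18 (SE, adjusted p = 3.58e-12 and 0.000353). The libraries of the genotypes did not overlap for any of the 3 genes, and as a ratio the gap was widest for Acta2. Skeletal alpha-actin, Acta1, was scarce, at 57.4 and 50.1 against 17.3 and 25.6 normalized counts, and it was called by a narrow margin (adjusted p = 0.0499, from the authors' deposited table). Actg2, an actin of visceral smooth muscle, was not tested, with 5 reads in the KO libraries together against 0 in the WT libraries.

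Most mRNAs for proteins that coat and bundle actin filaments rose. Tropomyosins lie along the filament and govern which myosins reach it, and 3 of 4 rose, with a class median of 1.38 in the authors' deposited table. Tpm4 had 1011 and 817 normalized counts in KO and 177 and 178 in WT, and Tpm1 had 2569 and 2040.2 against 485 and 761. Tpm3 had 1189.8 and 1236 in KO and 638 and 695 in WT. The authors' deposited table gave log2 changes of 2.37 ± 0.24 for Tpm4, 1.89 ± 0.24 for Tpm1 and 0.86 ± 0.20 for Tpm3 (SE, adjusted p = 7.46e-22, 8.2e-14 and 7.66e-05). For the fourth, Tpm2, both KO libraries lay above both WT libraries (101 and 128 against 73.3 and 64.6 normalized counts), without a call (adjusted p = 0.119, from the authors' deposited table).

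Of the 3 transgelins, small proteins that bind and gel actin filaments, 2 rose and the class had the highest median of the 14 classes in the authors' deposited table, 3.23. Tagln2 (chromosome 1, 172500246 to 172507375), the form found in many cell types, had 2148 and 2047 normalized counts in KO and 157 and 182 in WT. Tagln, also called SM22 and typical of smooth muscle, had 519 and 425 in KO and 59.3 and 40.4 in WT. In the authors' deposited table the log2 changes were 3.63 ± 0.21 for Tagln2 and 3.23 ± 0.31 for Tagln (SE, adjusted p = 2.75e-63 and 2.73e-23). The lowest KO library was several times above the highest WT library for both. Tagln3 was near the limit of detection, between 1.08 and 11.9 normalized counts, and was not called. Of the 2 alpha-actinins, which crosslink filaments, 1 rose. Actn1 had 757 and 637 normalized counts in KO and 166 and 236 in WT, a log2 change of 1.80 ± 0.26 (SE, adjusted p = 3.75e-11) in the authors' deposited table. Actn4, the other nonmuscle form, lay between 3035 and 3148 normalized counts in all 4 libraries, with a log2 change of 0.01 ± 0.18 (SE, adjusted p = 0.967) in the authors' deposited table. The difference between the 2 genes was not tested.

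At the authors' size factors few genes of the machinery that branches and severs filaments were called. Of 10 genes of the Arp2/3 complex 1 rose, 2 fell and 7 were not called, and the class median was -0.08 in the authors' deposited table. Arpc1b and Arpc1a are alternative forms of the same subunit and lie close together on chromosome 5 (145114256 to 145128186 and 145083869 to 145108756). Arpc1b had 1795 and 1746 normalized counts in KO and 685 and 572 in WT, while Arpc1a had 728 and 766 in KO and 1099 and 1109.7 in WT. The authors' deposited table gave 1.49 ± 0.20 for Arpc1b and -0.56 ± 0.20 for Arpc1a (SE, adjusted p = 1.43e-12 and 0.0123), and with libraries scaled to total counts in limma the value for Arpc1a turned to 0.26. Arpc3, a subunit shared by all forms of the complex, had 796 and 756 in KO and 1043 and 1159 in WT, a log2 change of -0.50 ± 0.20 (SE, adjusted p = 0.0301) in the authors' deposited table that also turned, to 0.32, at total counts. By the authors' deposited table, these falls were 1.48-fold and 1.42-fold. Among the 7 that were not called, Actr2, which codes for ARP2, came nearest to the threshold, with 1674 and 1781 normalized counts in KO and 1341 and 1217 in WT (adjusted p = 0.0517, from the authors' deposited table). Neither Cfl1 nor Cfl2 was called: Cfl1, the main filament-severing protein outside muscle, lay between 2366 and 2473 normalized counts in the 4 libraries. At total counts in limma, 8 of the 10 Arp2/3 genes and both cofilins were called higher and 0 lower, beside 58.7% of all genes called higher.

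Actin-related proteins outside the Arp2/3 complex held 3 of the 7 members that fell. Actr1a codes for the filament of dynactin and Actr10 for a subunit of its pointed end, and dynactin links dynein to its cargo on microtubules. Actr10 had 328 and 287 normalized counts in KO and 644 and 625 in WT, and it was the 1 member that fell at least 2-fold. Actr1a had 908 and 989 in KO and 1880.4 and 1640.2 in WT. Actr8, a subunit of the INO80 chromatin remodeller in the nucleus, had 262 and 265 in KO and 436 and 405 in WT. From the authors' deposited table, the log2 changes were -1.04 ± 0.23, -0.89 ± 0.19 and -0.67 ± 0.24 (SE, adjusted p = 2.64e-05, 2.68e-05 and 0.0152). At total counts Actr10 and Actr1a were at -0.22 and -0.07 in limma and no longer called, and Actr8 turned to 0.15. Actr1b, the second dynactin filament gene, and the nuclear Actr5 and Actr6 were not called.

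Of 4 tested heavy chains of type II myosin 1 rose, that of nonmuscle myosin IIA. Myh9 (chromosome 15, 77760585 to 77842175) had 10795 and 11017 normalized counts in the KO libraries against 3221 and 4212 in the WT libraries, a log2 change of 1.55 ± 0.19 (SE, adjusted p = 9.93e-15) in the authors' deposited table. The other 3 tested heavy chains were not called. Those of nonmuscle myosins IIB and IIC, Myh10 and Myh14, had 492 and 516 normalized counts in KO against 442 and 442 in WT for the first, and 872 and 1174 against 1107 and 1166 for the second. Smooth muscle Myh11 had 56.6 and 55.2 against 34.5 and 25.6, and cardiac Myh7 was not tested. Of 6 tested light chains 2 rose, both of them regulatory. Myl9 had 149.8 and 113 normalized counts in KO and 37.7 and 12.1 in WT, and Myl12a had 1856 and 1812 against 1074 and 1115. The authors' deposited table gave 2.37 ± 0.50 for Myl9 and 0.74 ± 0.19 for Myl12a (SE, adjusted p = 1.45e-05 and 0.000299). The WT libraries of Myl9 lay over 2-fold apart, and its limma value was 3.32 without WT A and 1.76 without WT B. The neighbouring Myl12b was not called, at 1432 and 1324 normalized counts in KO against 1072 and 1119 in WT. Nor was the essential light chain Myl6, at 1422 and 1544 against 1917 and 1638, or the scarce Myl4 and Myl6b. Mylk, the kinase that phosphorylates the regulatory light chains, had 639 and 688 in KO and 508 and 401 in WT, a log2 change of 0.54 ± 0.23 (SE, adjusted p = 0.0421) in the authors' deposited table. Its call was lost in limma without WT B, where the change was 0.38 (adjusted p = 0.0563).

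Unconventional myosins were the largest class, with 22 members, 19 of them tested. Of these 9 rose, 1 fell and 9 were not called, among them Myo6, Myo9a and Myo9b. Myo10, which travels to the tips of filopodia, had 1140.4 and 1116 normalized counts in KO and 335 and 384 in WT. Myo1c, which tethers membranes to actin, had 1562 and 1307 against 514 and 422, and Myo7a, best known from the hair cells of the inner ear, had 768 and 638 against 295 and 250.5. In the authors' deposited table their log2 changes were 1.65 ± 0.21, 1.61 ± 0.22 and 1.36 ± 0.24 (SE, adjusted p = 1.04e-13, 1.25e-12 and 8.84e-08). The libraries of the genotypes did not overlap for any of the 3. Also called higher were Myo1d, Myo19, the mitochondrial myosin, and Myo5a, an organelle carrier, between 0.73 and 2.04 on the log2 scale of the authors' deposited table.

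Another 3 myosins had few or no reads in the WT libraries and are named because of these values. Myo7b, a motor of epithelial microvilli, had 112 and 139 normalized counts in KO and 0 and 1.35 in WT. That was 304 reads in the KO libraries together against 1 in the WT libraries, a ratio of normalized counts of 209 with a 95% counting interval of 37.2 to 8273. Its limma value was 5.74 without WT A and 6.97 without WT B. Myo5c, a vesicle motor of secretory epithelia, had 100.4 and 51.8 against 2.16 and 8.08, and its limma value was 3.01 without WT A and 4.54 without WT B. Myo18b, a myosin of striated muscle, had 36 reads in the KO libraries against 0 in the WT libraries, at least 8.24-fold higher in KO against a floor of 3 counts over the group, and its limma value was 3.11 without KO A and 4.49 without KO B. All 3 were called higher in the DESeq2 test (adjusted p = 1.13e-06, 1.44e-06 and 0.0047, from the authors' deposited table). They were picked by these same values, so the p-values add no separate support. Myo16, with 22 reads in KO and 2 in WT, was not called (adjusted p = 0.158, from the same DESeq2 test). Myo1a, a brush border myosin, was not tested, with 11 reads in KO and 0 in WT, at least 2.52-fold higher by the same floor. Such intervals and floors cover counting error only.

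Most beta tubulins rose, 6 of 9 tested with 0 lower, the pseudogene Tubb2a-ps2 among the 6. The class median was 2.37 in the authors' deposited table and 1.85 in limma at the same size factors. The 3 that were not called, Tubb1, Tubb3 and Tubb4a, had mean normalized counts under 10. Tubb6, a widely expressed form, had 1444 and 1457 normalized counts in KO and 178 and 291 in WT. Tubb2a (chromosome 13, 34074278 to 34078008) had 3075 and 3839 in KO and 472 and 764 in WT, and Tubb5, another widespread form, had 5649 and 5138 against 1502 and 1796. The authors' deposited table gave 2.64 ± 0.25 for Tubb6, 2.49 ± 0.24 for Tubb2a and 1.71 ± 0.19 for Tubb5 (SE, adjusted p = 9.92e-25, 2.2e-23 and 1.83e-18). The gap between genotypes was wider than the gap within either for all 3. Tubb2b, next to Tubb2a on chromosome 13, had 1124 and 1229.6 against 167 and 291, and the pseudogene Tubb2a-ps2 36.7 and 45.0 against 5.39 and 5.39; these 3 are close in sequence, so how reads were divided among them is uncertain. Tubb4b, a form used in cilia and elsewhere, rose least of the 6, with 3689 and 4736 against 1957 and 2499.

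Of 5 tested alpha tubulins 3 rose and 0 fell, with a class median of 0.79 (authors' deposited table). Tuba8, a form known from muscle, brain and testis, had 545 and 455 normalized counts in KO and 56.1 and 20.2 in WT. Its log2 change was 3.68 ± 0.36 (SE, adjusted p = 8.63e-23) in the authors' deposited table, and in limma 4.56 without WT A and 3.13 without WT B. Tuba1b had 1011 and 909 in KO and 372 and 461 in WT, and Tuba1a 571 and 490.3 against 267 and 347. These 2 lie on chromosome 15 with Tuba1c, which was not called (952 and 915 against 643 and 875), and the 3 near-identical genes may share reads. By the authors' deposited table, Tuba1b rose by 1.21 ± 0.22 and Tuba1a by 0.79 ± 0.25 (SE, adjusted p = 3.87e-07 and 0.00484). Tuba4a, an isotype that is already detyrosinated when made, was not called, at 2997 and 3519.7 against 4035 and 3787 normalized counts. Of 2 gamma tubulins 1 fell and the scarcer Tubg2 was not called. Tubg1, the nucleator of microtubules, had 339 and 328 in KO and 640.5 and 664 in WT, a log2 change of -0.97 ± 0.22 (SE, adjusted p = 6.62e-05) in the authors' deposited table that was -0.15 and not called at total counts.

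**Figure D2:**
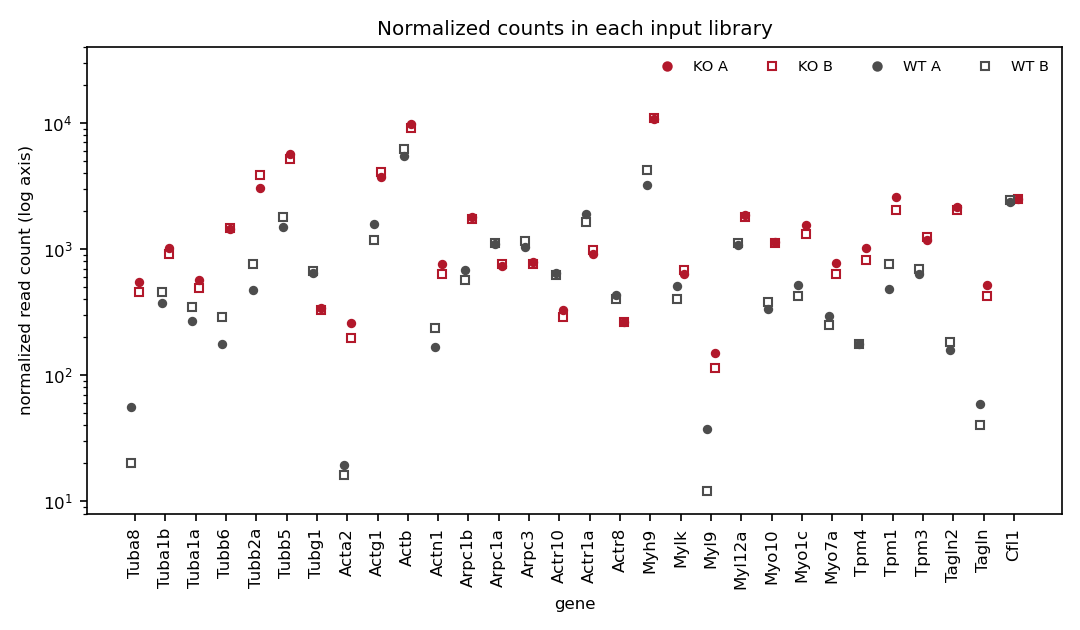
Normalized read count (log axis) of 30 members in each input library, with KO libraries in red and WT libraries in grey, circles for library A and squares for library B. The genotypes do not overlap for these genes, and for Acta2 the WT libraries lie at 19.4 and 16.2 while the KO libraries lie at 261 and 195; Cfl1 lies within 2366 to 2473 in all 4.

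The sign of the smaller falls depended on the scaling. Scaled to equal total counts instead of the authors' size factors, the median of all genes moved up by 0.80 on the log2 scale, to 0.87. In that limma fit 64 members were called higher (82.1%, beside 58.7% of all genes) and 0 lower (0 also at an unadjusted p under 0.05, beside 7.54% of all genes called lower). The members' median was 1.45. Against the median of all genes, 54 of the 78 members lay above it under either scaling. Rescaling moves nearly every gene by the same amount, so the place of a gene or class against that median could hardly change. Gamma tubulins, the Arp2/3 complex, the other actin-related proteins and the light chain kinases had medians below 0 at the authors' size factors and above 0 at total counts, where they still lay below the median of all genes.

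**Figure D3:**
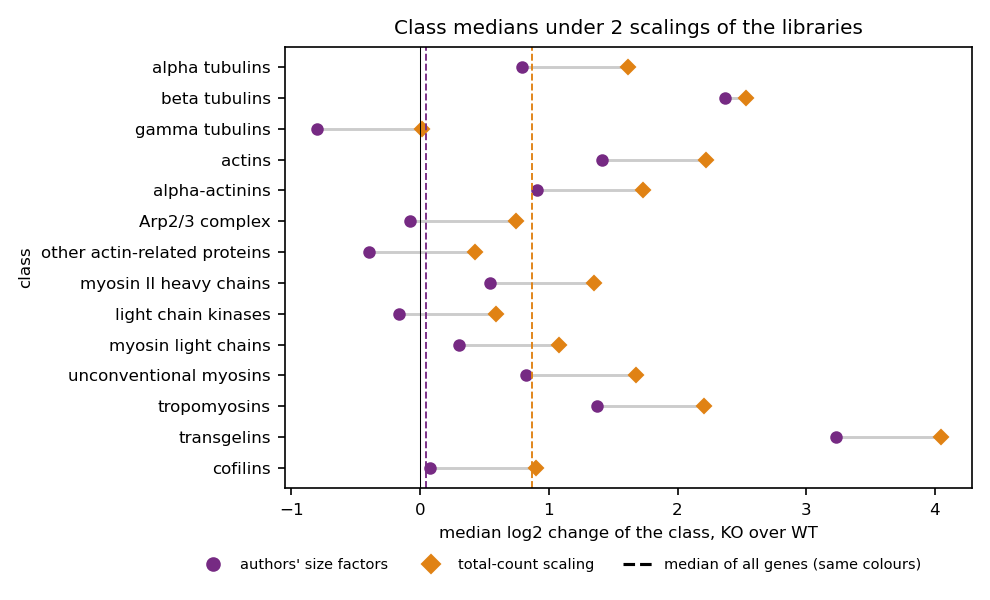
Median log2 change of each class, KO over WT, at the size factors of the authors' deposited table (circles) and in limma on recovered counts scaled to equal totals (diamonds), with dashed lines at the medians of all genes, 0.05 and 0.87. Circles come from DESeq2 and diamonds from limma, so fit and scaling differ together. In limma alone the beta tubulin median was 1.85 at the size factors and 2.53 at total counts. Transgelins have the highest median under both scalings (3.23 and 4.05), and the 4 classes left of 0 at the size factors move right of it at total counts.

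The m6A peak lists, 1 per genotype and so without replicates, held 48 peaks in 24 member genes in WT and 107 peaks in 46 member genes in KO. All 24 genes with a WT peak also had a KO peak, 22 had peaks solely in KO, 0 solely in WT, and 40 had none. The whole lists held 5586 and 12290 peaks. Among all 16133 genes 18.5% had a WT peak and 36.3% a KO peak, beside 27.9% and 53.5% of the members. Among genes with a mean of at least 100 the shares were 42.1% of members beside 32.4% of all genes in WT, and 78.9% beside 62.2% in KO. No source used here gives the depth of the IP libraries, so the numbers of peaks in the 2 lists cannot be compared as amounts of methylation. Enrichment, read as IP over input, is the authors' value per peak. Its median was 26.5 over the WT peaks of the members (24.2 over the whole list) and 8.54 over their KO peaks (13.1 over the whole list).

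Peaks were compared where their blocks shared at least 1 base on the same strand. The peaks of members covered a median of 50 bases in WT and 149 in KO, so paired enrichments often come from unlike stretches. Of the 48 WT peaks of members 42 overlapped a KO peak (87.5%, beside 72.6% of the whole WT list), and 35 of the 107 KO peaks overlapped a WT peak (32.7%, beside 27.3%). The 42 pairs drew on these 35 KO peaks, since some KO peaks overlapped several WT peaks, so pairs are not separate observations. In 32 of the 42 overlapping pairs the enrichment was lower in KO (76.2%), close to the 75.4% of all 4102 pairs. The median ratio of KO over WT was 0.52, beside 0.50 over all pairs. Since input is the denominator of the enrichment, the ratio is not independent of the mRNA change. Of 20 pairs in genes whose mRNA rose 15 were lower in KO, as were 15 of 20 pairs in genes that were not called and both pairs in genes that fell.

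Enrichment was several times lower in KO in genes of each call, over paired peaks of often unlike width. Without replicates none of these differences has a test. In Myh9 all 5 pairs were lower in KO: the pair with the strongest WT peak, at chr15:77769034-77769242 (mm10), went from 60.1 to 4.49, and the others from 25.9 to 49.0 in WT to 3.82 to 8.23 in KO. The Myh9 WT peaks at 28.5 and 39.0 overlapped the same KO peak, at 4.05. In Arpc5, an Arp2/3 subunit whose mRNA was not called, the WT peak at the 5′ end (chr1:152766593-152766841) had 516 over 249 bases. The KO peak that overlapped it had 27.0 over 349 bases. In Actr5 a 5′ peak went from 412 to 14 and a 3′ peak from 128 to 23.6. Actr8, whose mRNA fell, had a 5′ peak with 152 in WT and 12.1 in KO. In Myo18a, a divergent myosin, 4 pairs with 27.8 to 68.6 in WT had 5.92 to 15.7 in KO. Its WT peaks at 66.4 and 27.8 overlapped the same KO peak, at 7.78. Tpm4 had a high enrichment in both lists, 128 in WT and 66.1 in KO, as did Myo1e, at 291 and 88.8, and Actr3, at 91.0 and 64.3.

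In 10 pairs the enrichment was higher in KO, from 6 genes: Tuba4a, Tubb4b, Actb, Myl6, Myl12b and Actn4. In Tuba4a 2 weak WT peaks, at 1.66 and 1.79, overlapped the same KO peak at 14.9, while its remaining pair went from 4.76 to 3.76. A further WT peak of Tuba4a had an enrichment of 0.953, below 1, and a p of 0.665 in the list. In Tubb4b 2 WT peaks at 3.28 and 5.37 overlapped a KO peak at 11.6. Myl6 went from 7.32 to 17.5 and Myl12b from 15 to 23.6. Actb had 3 pairs higher in KO and 1 lower, all between 4.76 and 12.5, while the 1 pair of Actg1 went from 26.4 to 5.68 and that of Cfl1 from 8.47 to 2.78. The Actb WT peaks at 9.91 and 7.19 overlapped the same KO peak, at 12.5.

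**Figure D4:**
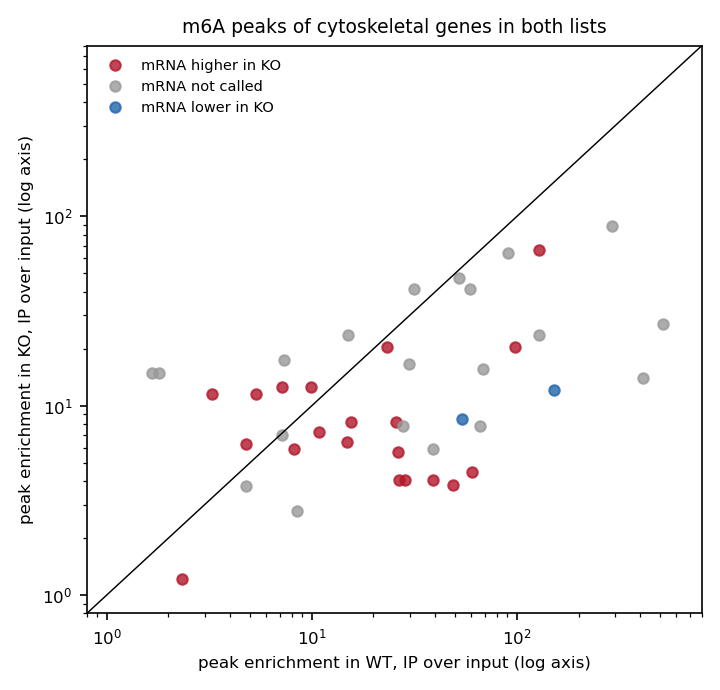
Enrichment (IP over input) of 42 overlapping peak pairs in 23 member genes, WT on the horizontal and KO on the vertical axis, both log axes, coloured by the call of the gene's mRNA. Points below the diagonal (32 pairs) have a lower enrichment in KO, and the 2 pairs farthest above it belong to Tuba4a.

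Peaks present in the KO list alone were found in genes of all 3 calls. Of the 33 members whose mRNA rose, 11 had peaks in KO alone, 8 in both lists and 14 in neither. For the 7 that fell the numbers were 3, 3 and 1, and for the 38 that were not called 8, 13 and 17. Myo10 had 6 KO peaks with enrichments from 8.20 to 50, Myo7a 2 at 43.6 and 91.6, and Mylk 3 at 24.6 to 28.1. Tuba8, Tubb6, Tagln2, Myl9 and Arpc1b had 1 KO peak each, at 14.9, 15.3, 9.96, 10.4 and 22.7. Actr6, which was not called, had the highest KO enrichment of the members, 189, and Arpc1a, whose mRNA fell, had KO peaks of up to 36.2. No peak in either list was found in 8 genes with a mean of at least 100 that rose: Acta2, Tagln, Actn1, Myo1c, Myo1d, Myo19, Tuba1a and Tubb2b. Of the members' WT peaks 14 lay within 500 bases of the 5′ end of the gene and 5 within 500 bases of its 3′ end, and of their KO peaks 34 and 13. The 5′ shares of 29.2% and 31.8% were near those of the whole lists, 27.2% and 27.4%, as were the 3′ shares of 10.4% and 12.1%, beside 13.3% and 10.9%.

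Other genes of the actin cytoskeleton, none of them members, rose more often than they fell. Beside the counts of these lists, 20.4% of all tested genes were called higher and 22.2% lower. Of 41 tested genes for actin assembly and severing 20 rose and 4 fell, with a class median of 0.87 (authors' deposited table). Ssh1, the phosphatase that activates cofilin, had 979 and 1124 normalized counts in KO and 88.4 and 151 in WT, and cortactin, Cttn, had 1748 and 1631 against 573 and 726. Of 27 crosslinkers and membrane linkers 15 rose and 3 fell (median 0.93 in the authors' deposited table), with the smallest p for the scaffold Iqgap1 and for filamin A, Flna, at 2.46 ± 0.24 and 2.28 ± 0.22 (SE).

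A list of SRF, YAP, their coactivators and their targets outside the family had 18 of 22 genes higher and 1 lower, with a median log2 change of 1.44 by the authors' deposited table. For this list and those below, the shares of all tested genes were again 20.4% higher and 22.2% lower. Of its 17 targets 15 rose and 1 fell; of the 5 factors and coactivators Srf, Mkl1 and Mkl2 rose, and Yap1 and Wwtr1 were not called. Of the targets 4 (Cnn2, Flna, Vcl and Zyx) also stand in the crosslinker list. Thbs1, thrombospondin 1, had 327 and 402 normalized counts in KO and 14.02 and 18.9 in WT. The 1 that fell was Junb, an immediate early gene, also below 0 at total counts (-0.42 in limma). Among 31 genes of microtubule nucleation, folding and binding 11 rose and 4 fell, and the median (0.07, from the authors' deposited table) was close to that of all genes. Of 32 kinesin, dynein and dynactin genes 11 rose and 4 fell (median 0.55 in the authors' deposited table); Dynll1, a dynein light chain, and Kif3a, a subunit of kinesin-2, rose by 2.25 ± 0.26 and 2.24 ± 0.35 (SE). Dctn3 and Dctn2, dynactin subunits like Actr1a and Actr10, fell by 1.20 and 0.56 in the authors' deposited table, and stood at -0.37 and 0.27 in limma at total counts. The other 4 tested dynactin genes of the list were not called. Of the 8 subunits of CCT, the chaperonin that folds actin and tubulin, 0 rose and 1 fell, Cct7, at -0.42 ± 0.18 (SE, adjusted p = 0.0457) in the authors' deposited table and at 0.40 in limma at total counts. Of 13 intermediate filament genes 6 rose and 0 fell, among them plectin, Plec, and keratin 19, Krt19, at 1.56 ± 0.17 and 3.59 ± 0.46 (SE) in the authors' deposited table. The counts of these lists depended on the scaling. At total counts in limma, beside 58.7% of all genes called higher, the genes called higher were 36 of 41 for actin assembly, 24 of 27 for crosslinkers, 21 of 22 for the SRF and YAP list, 24 of 31 for microtubule nucleation, folding and binding, 25 of 32 for motors, 11 of 13 for intermediate filaments and 8 of 8 for CCT. In that fit 0 genes of these lists were called lower, except Junb.

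Markers of stellate cells, cholangiocytes and proliferating cells were among the genes that rose. Beside the marker counts, 20.4% of all tested genes were called higher and 22.2% lower. Of 12 stellate cell or fibroblast markers 6 rose and 0 fell, and their summed normalized counts were 11602 and 8434 in the KO libraries against 5601 and 4189.5 in the WT libraries. Col3a1 and Col1a1, collagen genes, had the smallest p, at 4.02 ± 0.27 and 4.08 ± 0.30 (SE) in the authors' deposited table, while Lrat, Dcn, Des, Lum, Dpt and Colec11 were not called. Of 5 tested smooth muscle markers 1 rose, Smtn, a share near the 20.4% of all tested genes. The summed counts of that list were 645 and 453 in KO and 303 and 312 in WT. Myocd and Cspg4 of the same list were at 0 reads in WT and were not tested. Of 10 cholangiocyte markers 9 rose, with sums of 4818 and 3689 in KO and 672 and 856 in WT and Cftr at 0 reads in WT. Of 8 markers of proliferating cells 4 rose, Mki67 and Cdk1 among them, with sums of 733 and 397 in KO and 70.1 and 53.9 in WT. Ccnb1 of that list was at 0 reads in WT and was not called. In each of these 4 lists KO A had the higher sum of the KO libraries.

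The remaining marker lists showed few calls or falls. Of 12 macrophage markers 2 rose, Cd68 and Cd14, and 2 fell, Clec4f and Vsig4. Neither share was above that of all tested genes, 20.4% higher and 22.2% lower. The median log2 change of this list was -0.21 by the authors' deposited table. Its sums were 9049.8 and 7815 in KO and 7819 and 7269 in WT. Of 10 endothelial markers 0 rose and 1 fell, with sums of 2988 and 2636 in KO and 3018 and 2227 in WT, which overlap. Neutrophil markers held 0 rises and 1 fall among 7, lymphocyte markers 0 calls among 8, skeletal muscle markers 0 calls among 2, and mesothelial markers 1 rise among 5, which was Krt19 again. Of 12 hepatocyte markers 11 fell and 1 rose, with a median log2 change of -2.14 by the authors' deposited table; Serpina1a and Pck1 were at -3.32 ± 0.18 and -3.77 ± 0.21 (SE) there. At total counts in limma 7 of the 10 endothelial, 6 of the 12 macrophage, 10 of the 12 stellate cell, 3 of the 5 smooth muscle, 10 of the 10 cholangiocyte and 8 of the 8 proliferation markers were called higher, as were 4 of the 5 mesothelial, 1 of the 7 neutrophil, 0 of the 8 lymphocyte and 0 of the 2 skeletal muscle markers. None of these markers was called lower in that fit, which held 2 of the 12 hepatocyte markers, both called lower. The part of these cell types in the changes of the cytoskeletal genes was not tested.

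**Figure D5:**
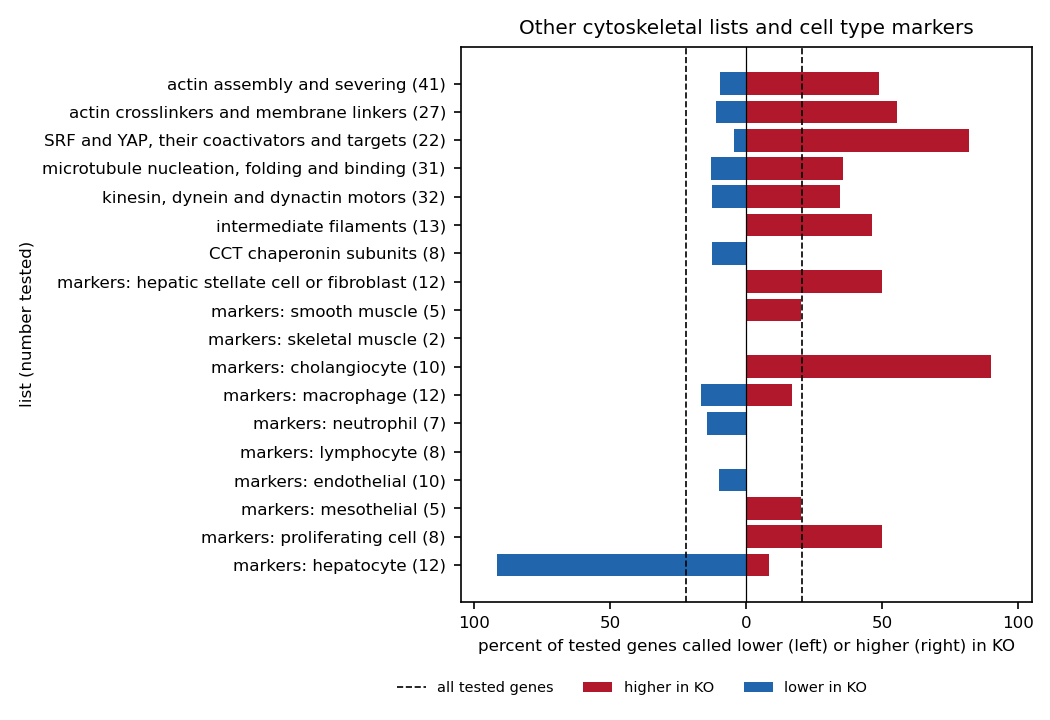
Percent of tested genes called higher (right, red) or lower (left, blue) in KO for 7 lists of other cytoskeletal genes and 11 lists of cell type markers, with the number tested in brackets and dashed lines at the shares of all tested genes, 20.4% higher and 22.2% lower. The list of SRF, YAP, their coactivators and targets (18 of 22) and the cholangiocyte markers (9 of 10) reach farthest to the right, and the hepatocyte markers (11 of 12 lower) farthest to the left.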

How the data were processed

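Liver RNA of tunicamycin-treated WT and KO mice was sequenced as 4 input and 4 IP libraries, 2 per genotype each. Per the submitters' processing notes, tools were HISAT2 2.1.0 and DESeq2 1.18.1, with build mm10. No source used here gives the counter, gene annotation, strand setting or peak caller.

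The authors deposited a table comparing KO with WT input and a list of peaks for each genotype. In the table the mean is a deposited signal, a mean of counts divided by size factors. The fold change and its standard error are deposited log2 values, the test value is a deposited score (the Wald statistic), and each deposited p-value, raw or adjusted, is the authors' own. Enrichment in the deposited lists is read as a ratio, IP over input. Another column, with values between 0 and 1, is read as the peak p-value of the authors. Whether each list pools libraries is not stated.

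Computed here: whole read counts that sum to each deposited mean were sought up to a mean of 10000, guided above a mean of 100 by the fold change. They were found for 15950 of 16133 genes (98.9%), including all 86 members. Counts of the 181 genes above 10000 were not sought. In the library totals, genes without recovered counts entered at the genotype mean implied by the deposited mean and fold change. Every result at total counts rests on these estimated totals. Refitted fold changes of 1333 genes recovered without that guide differed from the deposited ones by at most 0.000853 on the log2 scale. The recovery and the limma fit were tested on simulated data. Within genotypes log2 counts across genes correlated at 0.98 in KO and 0.98 in WT, and between genotypes at 0.91 to 0.92; genes are not independent replicates. Normalized counts are these counts over the authors' size factors. Members were called at a deposited adjusted p under 0.05. As an alternative, limma 3.58.1 with a trend was fitted in R 4.3.3 to log2 of normalized counts plus 1 for 14074 genes, also at total counts, with a pseudocount of 10 and without each library. Gene and start region positions come from RefSeq, GRCm38.p6.

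The members and gene lists were chosen with earlier results of these data known. Named with values were up to 3 called members per class by smallest p, up to 2 called in the opposite direction, otherwise the member of highest mean, the actins Actb, Actg1 and Acta2, members with peaks, and up to 2 called genes per list. Myo7b, Myo5c, Myo18b, Myo16, Myo1a, Junb, Dctn2 and Dctn3 were named after their values were seen, and further members to complete their class. Values of 1 member and of 1 of the lists are not reported here.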

Additional observations from a re-analysis of the deposited data

How the results depend on the processing

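The count of members called higher was 33 in the authors' deposited table, 37 in limma, 64 in limma at total counts and 0 to 38 when a library was left out of limma; the count called lower was 7, 7 and 0, and 0 to 8. Both counts were 0 without KO A and without KO B, where 28 and 29 members were higher and 9 and 6 lower at an unadjusted p under 0.05, and where the lone KO library was assumed to vary like the WT pair. At an adjusted p under 0.01 the count called lower was 4. The members' median was 0.72, and 0.63 in limma, 1.45 at total counts, 0.62 for members with a mean of at least 10 and 0.54 to 0.72 with a library left out. The beta tubulin median was 2.37 in the authors' deposited table, 1.85 in limma and 1.77 to 1.97 with a library left out. Medians that changed sign at total counts were those of gamma tubulins (0.011), the Arp2/3 complex (0.75), other actin-related proteins (0.42) and light chain kinases (0.59). With a library left out the Arp2/3 median ranged from -0.19 to 0.042, above 0 without WT B, and that of the 2 tested kinases from -0.52 to 0.30, above 0 without KO A and (0.23) without WT A; with a mean of at least 10 it was 0.54, from Mylk alone. Arpc1a (0.26), Arpc3 (0.32) and Actr8 (0.15) also changed sign at total counts. With peaks limited to p below the median of all peaks, the KO list held 67 member peaks. Beside these values the cause was not tested. No paired analysis was possible because the recovered libraries cannot be tied to replicate numbers. Low counts limit Acta1, Myo18b, Tubb1, Tubb3, Tubb4a, Tagln3 and the 8 untested members.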
